A study of Mus musculus with 21 samples.

Results

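The tricarboxylic acid cycle was followed through 9 nuclear genes in mouse heart RNA: Cs, Idh2, Idh3a, Idh3b, Ogdh, Dlst, Sucla2, Fh1 and Mdh2. They were taken by gene symbol, not by any measured value, from the 19096 genes of the deposited gene matrix, and all 9 passed the filter on low counts. The series models heart failure with preserved ejection fraction by pairing obesity from diet with hypertension from renin. Hearts of 21 male C57BL/6NJ mice, aged 8 to 10 weeks when assigned to a diet, gave 1 library each. The groups were chow with null vector (chow null, n = 4), chow with AAV-Renin (chow renin, n = 6), a high-fat diet (HFD, 60% of energy from fat) with null vector (HFD null, n = 6) and HFD with AAV-Renin (HFD renin, n = 5). AAV-Renin is an adeno-associated virus that carries renin, the protease at the head of the angiotensin cascade. The diets ran for 10 weeks, and hearts were frozen 6 weeks after injection behind the eye. The animals without renin are labelled "novirus" on each sample but null vector in the series text, and the promoter of the vector is not given in the sources used here.

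The cycle runs in the mitochondrial matrix. It oxidizes the acetyl group that fatty acid, glucose, ketone and amino acid breakdown all deliver, and hands the electrons as NADH and FADH2 to the respiratory chain. Heart muscle makes most of its ATP this way and carries a high density of mitochondria, so the transcripts of these enzymes are abundant in heart. Since the samples were bulk heart tissue, fewer cells of a type and less RNA per cell cannot be told apart in any value given here.

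The enzymes follow one another in a fixed order. Cs, citrate synthase, joins acetyl-CoA to oxaloacetate. Idh3a and Idh3b are the catalytic alpha and the beta subunit of the NAD-dependent isocitrate dehydrogenase, and Idh2 is the NADP-dependent mitochondrial isocitrate dehydrogenase. Ogdh and Dlst are the E1 and E2 components of the 2-oxoglutarate dehydrogenase complex. Sucla2 is the ATP-forming beta subunit of succinyl-CoA ligase, Fh1 is fumarate hydratase, and Mdh2 is the mitochondrial malate dehydrogenase that returns oxaloacetate to Cs. On build GRCm38 these protein-coding genes span Cs at chr10:128337734-128362479 (plus strand), Idh2 at chr7:80094846-80115392 (minus strand), Idh3a at chr9:54586334-54604661 (plus strand), Idh3b at chr2:130279309-130284547 (minus strand), Ogdh at chr11:6291633-6356642 (plus strand), Dlst at chr12:85110833-85134845 (plus strand), Sucla2 at chr14:73525319-73596142 (plus strand), Fh1 at chr1:175600374-175625635 (minus strand) and Mdh2 at chr5:135778480-135790398 (plus strand).

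Promoter sequence from RefSeq (build GRCm38.p6) was matched by symbol for 8 of the 9 genes, all but Idh3a. The stretches for Cs, Dlst and Fh1 are printed because these genes fell with renin in at least 1 comparison and their start in RefSeq lay within 7 bases of the start of their leading transcript. Each run is 150 bases on the strand of the gene, of which 140 lie before the start and 10 from the start on. They are Cs at chr10:128337587-128337736 (plus strand), Dlst at chr12:85110693-85110842 (plus strand) and Fh1 at chr1:175625626-175625775 (minus strand). Capitals mark CCAAT or its complement ATTGG in Cs and Fh1, and CTTCCGG, the complement of the ETS motif CCGGAAG, in Dlst.
Cs: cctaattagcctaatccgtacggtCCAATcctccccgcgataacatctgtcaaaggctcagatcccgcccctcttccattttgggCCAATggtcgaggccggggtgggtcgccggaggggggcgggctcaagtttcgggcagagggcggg
Dlst: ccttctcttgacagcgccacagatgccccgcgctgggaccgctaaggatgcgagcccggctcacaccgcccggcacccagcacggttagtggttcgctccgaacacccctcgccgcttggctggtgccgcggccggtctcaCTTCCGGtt
Fh1: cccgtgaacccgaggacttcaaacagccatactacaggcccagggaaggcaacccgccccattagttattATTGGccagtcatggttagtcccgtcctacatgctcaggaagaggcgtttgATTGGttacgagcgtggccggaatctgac

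Motifs were searched on both strands in the full entries, which hold 250 bases before and 50 after each start. CCAAT was found in 5 of the 8 promoters (Cs, Idh2, Idh3b, Ogdh and Fh1) and in 37.4% of all 32851 promoters of that length. CCGGAAG was found in 2 of 8, Idh3b and Dlst, against 8.86% of all promoters. The estrogen-related receptor element TCAAGGTCA was found in 0 of 8 and in 0.423% of all promoters. The consensus motif of the factor NRF1 was found in 0 of 8 and in 1.27% of all promoters. No match of one motif overlapped that of another in these promoters, and a match is a description of the sequence only.

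Libraries held 18.7 to 29.3 M (mega) estimated reads. The 4 chow null libraries held 18.7 to 21.4 M reads, all fewer than any library of the other groups, so depth and group cannot be told apart in a comparison with chow null. The 8 cardiomyocyte markers were detected in every group, with summed levels between 56032 and 79677 CPM (read counts relative to library size, scaled with edgeR's TMM factors), as the tissue label says. Myl7, the atrial myosin light chain, lay between 103 and 254 CPM in 5 libraries (chow null 3, chow renin 1 and 3, HFD null 3, HFD renin 3) and at 2.98 CPM or less in the others. Library 6 of HFD null stood apart in the transcripts of several cycle genes, described further on, and had the highest share of reads on retained-intron transcripts, 2.01%, against at most 1.79% elsewhere. Summed levels of 12 central neuron and glia markers were 277 to 457 CPM in chow renin and 87.4 to 94.1 CPM in chow null. The series text counts 4 to 6 mice per group, as many as there are libraries, so each library was taken as 1 mouse.

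On the TPM scale, which corrects for transcript length and library size, Idh2 was the most abundant of the 9 genes in chow null, at 964 ± 86.4 TPM (SD, n = 4). Mdh2 followed at 618 ± 21.7 TPM and Ogdh at 468 ± 12.6 TPM. Cs at 341 ± 19.4 TPM and Idh3b at 337 ± 11.8 TPM did not differ beyond their spread. Below them came Sucla2 at 272 ± 7.33 TPM, then Dlst at 194 ± 10.2 TPM and Idh3a at 179 ± 12.2 TPM, whose ranges overlapped, and Fh1 at 118 ± 2.73 TPM. The hydratase near the end of the cycle was thus the least abundant transcript of the set, and the NADP-dependent dehydrogenase the most abundant. In HFD renin the levels were 887 ± 137 TPM for Idh2, 571 ± 16.2 for Mdh2, 443 ± 26.1 for Ogdh, 288 ± 8.89 for Idh3b, 277 ± 7.78 for Cs, 247 ± 10.2 for Sucla2, 176 ± 9.88 for Dlst, 157 ± 10.4 for Idh3a and 103 ± 3.96 for Fh1 (SD, n = 5). There Idh3b stood above Cs, but the range of Cs, 270.5 to 286.7 TPM, overlapped that of Idh3b, 277.1 to 300 TPM.

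Against chow null, 3 of the 9 genes fell with renin on chow (Cs, Idh3a and Dlst), 2 fell with renin on HFD (Cs and Idh3b), and 0 passed the test with HFD alone. A gene was called at a Benjamini-Hochberg adjusted p under 0.05 in edgeR's quasi-likelihood test over 15216 genes. Over all those genes, 13.5% were called in chow renin against chow null (3.36% lower), 8.29% in HFD renin against chow null (4.25% lower) and 0.0657% in HFD null against chow null (0.0526% lower). Against HFD null, 2 of 9 fell with renin on HFD (Fh1 and Idh3b), where 11.1% of all genes were called and 5.08% were lower. Calls toward lower levels were more common among abundant genes, which is the range in which all 9 lie. Among the 300 genes with a mean of at least 300 CPM, a comparator chosen after the values were seen, 46 were lower in chow renin and 45 in HFD renin against chow null, and 63 in HFD renin against HFD null. The counts for the cycle genes are to be read against those higher shares among abundant genes. The balance of calls over all genes also moved with the scaling. In chow renin against chow null edgeR with TMM factors called 1537 genes higher and 511 lower, upper-quartile factors 1625 and 264, and limma on TPM 1573 and 41. In HFD renin against HFD null the TMM split was 923 higher and 773 lower, and that of limma on TPM 1520 and 180.

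**Figure D1:**
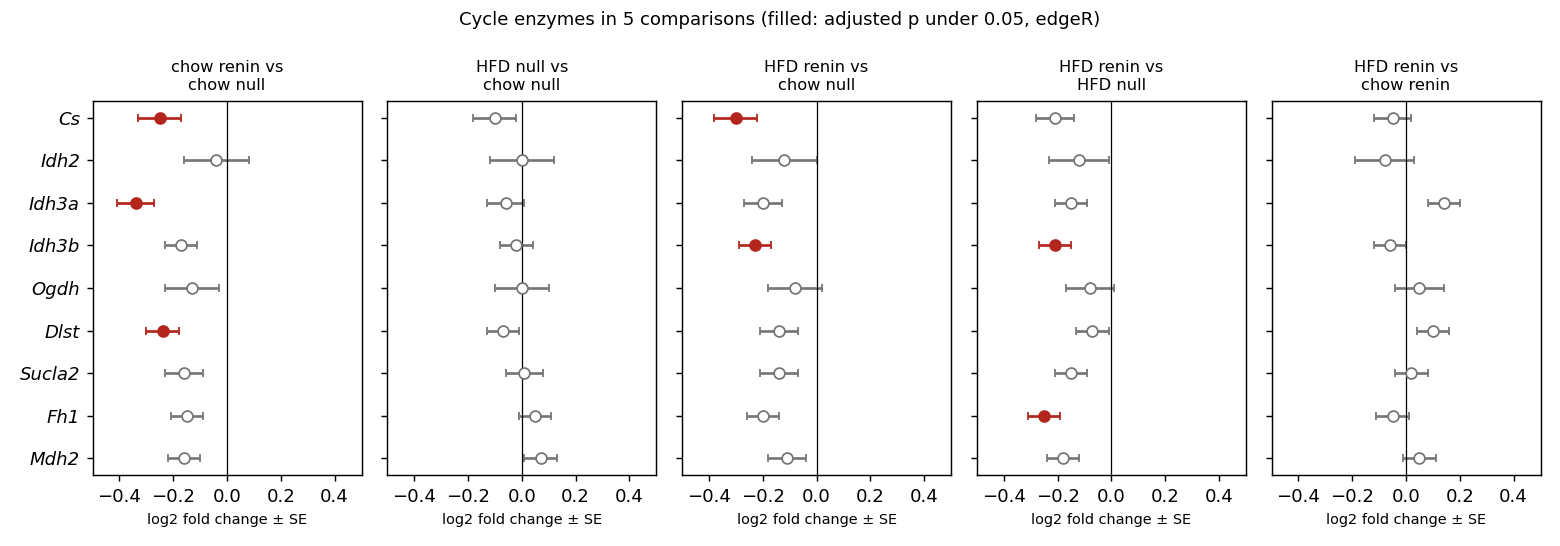
Fitted log2 fold change with its standard error (x axis) of each of the 9 cycle genes (y axis) in 5 comparisons, with filled points for adjusted p under 0.05 in edgeR. In the 3 comparisons of a renin group with a null vector group all 9 points lie below 0 (in limma on TPM, Idh2 on chow and Dlst, Ogdh and Sucla2 against HFD null do not). In the comparison of diets with null vector they scatter between -0.10 and 0.07, but on TPM all 9 group means are lower in HFD null. Of the 300 abundant genes, 259 lie below 0 in chow renin against chow null, 166 in HFD renin against chow null and 190 against HFD null.

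In each of the 3 comparisons of a renin group with a null vector group, all 9 changes were negative in edgeR, but in limma on TPM Idh2 was at 0.07 in chow renin against chow null, and Dlst, Ogdh and Sucla2 were at 0.04, 0.07 and 0.00 in HFD renin against HFD null. Their median log2 fold change was -0.16 in chow renin against chow null, beside -0.03 over all genes tested and -0.13 over the 300 abundant genes. It was -0.14 in HFD renin against chow null, beside 0.01 and -0.03. Against HFD null it was -0.15, beside -0.01 and -0.07. Negative changes were also found for 8457 of all 15216 genes and 259 of the 300 abundant genes in chow renin against chow null. Those counts were 7207 and 166 in HFD renin against chow null, and 7777 and 190 against HFD null. A negative sign was thus common among abundant genes on chow. These comparisons share control or renin libraries, so they are not independent of one another.

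Cs, at the entry of the cycle, fell in both renin groups against chow null. The chow null libraries stood at 1210, 1213, 1025 and 1171 CPM, and those of HFD renin at 892.1, 957, 961, 964.5 and 900.5 CPM. In chow renin the lowest, median and highest were 934.9, 953 and 1019 CPM, and in HFD null they were 840, 1115 and 1192 CPM. Every renin library thus lay below every chow null library, while 1 HFD null library lay below all others. Cs fell by 19% in HFD renin (log2 fold change -0.30, SE 0.08, edgeR Benjamini-Hochberg adjusted p = 0.0204) and by 16.2% in chow renin (-0.25, SE 0.08, adjusted p = 0.026) against chow null. With HFD alone the difference was -0.10 (SE 0.08, adjusted p = 0.684). Against HFD null, HFD renin differed by -0.21 (SE 0.07, edgeR adjusted p = 0.064), and without library 6 of HFD null, the one at 840 CPM, by -0.27 (adjusted p = 0.00391).

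The call of Cs in HFD renin ended when any one of chow null 1, 2 or 4 or HFD renin 1 or 5 was left out, with edgeR adjusted p of 0.071, 0.0722, 0.0614, 0.0551 and 0.0535 in that order. That in chow renin ended without chow null 1, 2 or 4 or chow renin 1, 3 or 5 (0.128, 0.133, 0.0672, 0.095, 0.0906 and 0.0802) and without the 5 libraries with atrial transcripts (0.108, log2 fold change -0.27). It also ended under upper-quartile factors (edgeR adjusted p = 0.0602), without the filter on low counts (0.0565), and in limma on the gene matrix signal (0.0517) and on TPM, where the change was -0.14 (0.185).

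**Figure D2:**
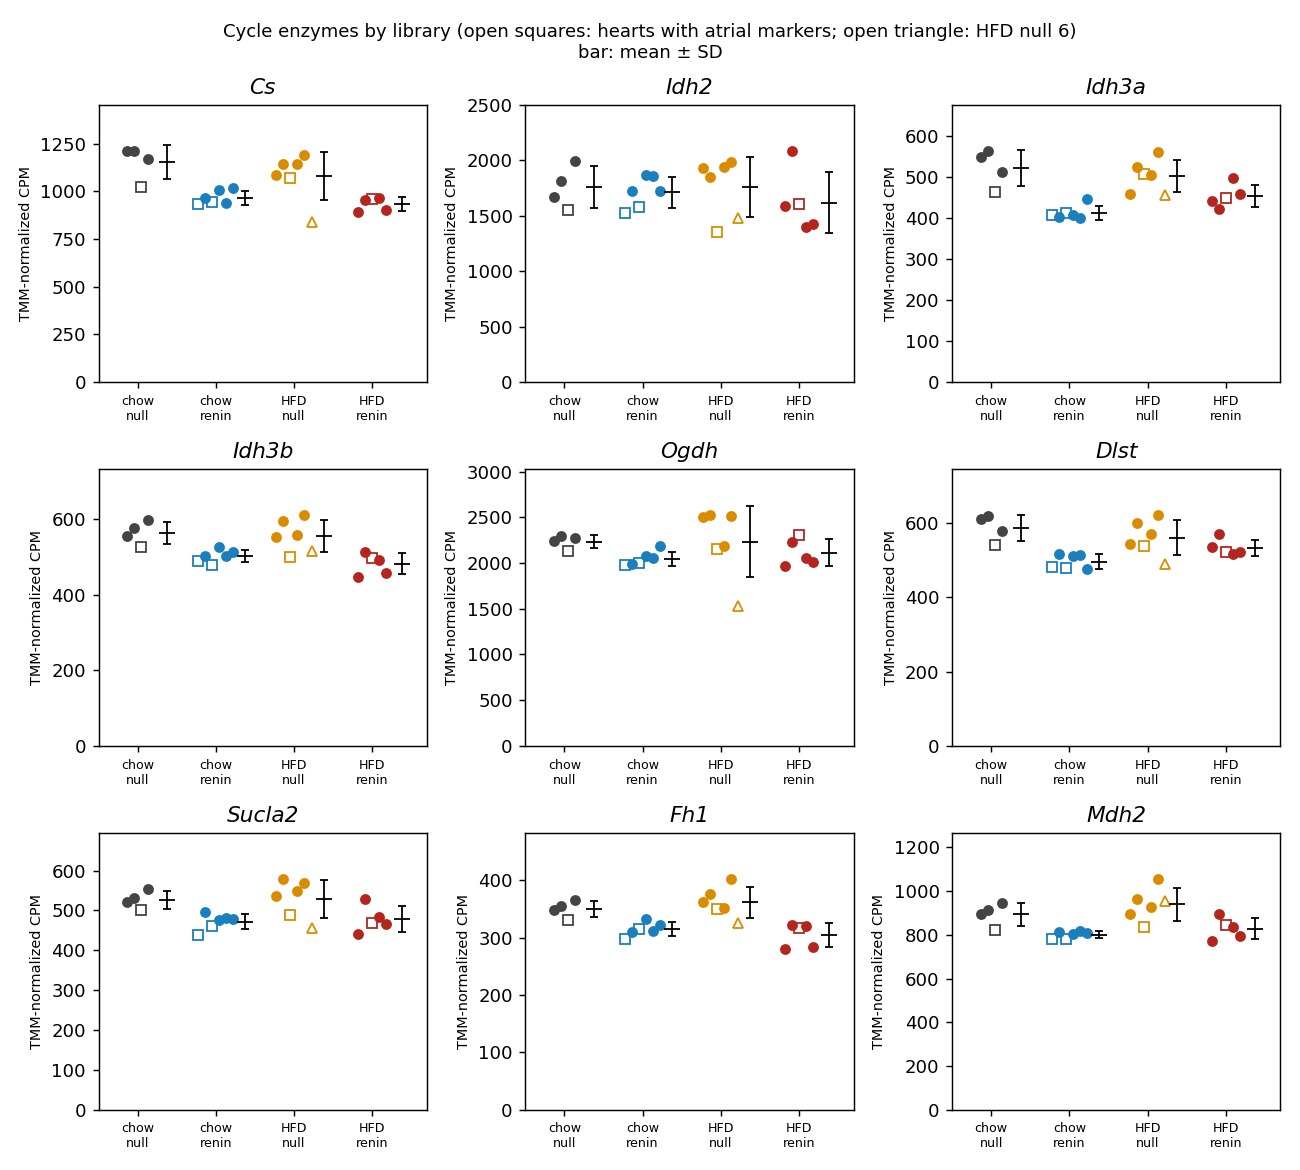
Normalized CPM (y axis, from 0) of the 9 genes in each of the 21 libraries by group (x axis), with the mean and SD beside each group; open squares are the 5 libraries with Myl7 of 103 CPM or more and the open triangle is library 6 of HFD null. For Cs all 11 renin libraries lie below the 4 chow null libraries, and the triangle is the lowest point of Cs at 840 CPM and of Ogdh at 1527 CPM.

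At the isocitrate step, Idh3a of the NAD-dependent enzyme fell with renin on chow and Idh3b with renin on HFD, groups whose effects were not shown to differ. For Idh3a, chow null stood at 550, 563.8, 464 and 512.2 CPM, and chow renin had a lowest, median and highest of 399.9, 407.9 and 446.2 CPM. HFD renin stood at 441.5, 422.2, 449.6, 497.5 and 457.9 CPM, and HFD null at 457 (lowest), 505.9 (median) and 562.3 CPM (highest). The chow renin libraries were all below chow null, and those of HFD renin overlapped it. Idh3a fell by 21% in chow renin (log2 fold change -0.34, SE 0.07, edgeR Benjamini-Hochberg adjusted p = 0.000737), the lowest adjusted p of any of the 9 genes in any comparison. That call stayed when any single library was left out, with adjusted p at most 0.0114. In HFD renin the difference from chow null was -0.20 (SE 0.07, adjusted p = 0.0738), which passed without chow null 3 (edgeR adjusted p = 0.0307), HFD null 6 (0.0481) or HFD renin 4 (0.0354).

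Idh3b, the partner subunit, stood at 556, 576.5, 527.8 and 598 CPM in chow null and at 447.9, 514.7, 498.8, 491.4 and 459 CPM in HFD renin. Chow renin had a lowest, median and highest of 478.4, 503.7 and 526.6 CPM, and HFD null of 500.3, 555.9 and 612.3 CPM. Both renin groups lay below every chow null library, chow renin by a narrow gap. Idh3b fell by 14.6% in HFD renin against chow null (log2 fold change -0.23, SE 0.06, edgeR Benjamini-Hochberg adjusted p = 0.0319) and by 13.3% against HFD null (-0.21, SE 0.06, adjusted p = 0.0274). In chow renin the difference was -0.17 (SE 0.06, adjusted p = 0.0818). Leaving out chow null 1, 2 or 4 or HFD renin 1 or 5 ended the first call (edgeR adjusted p 0.0669, 0.0877, 0.12, 0.0806 and 0.0842), and leaving out HFD null 2 or 5 or HFD renin 1 or 5 ended the second (0.0597, 0.0623, 0.096 and 0.0826). With only the compared groups in the fit, neither passed (edgeR adjusted p 0.0567 and 0.125), nor did they without the filter on low counts (0.0623 and 0.0588). In limma on TPM the second was at -0.08 (adjusted p = 0.196).

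The TPM ratio of Idh3a to Idh3b was 0.533 ± 0.0365 in chow null (SD, n = 4), 0.472 ± 0.0223 in chow renin (n = 6), 0.521 ± 0.0353 in HFD null (n = 6) and 0.544 ± 0.0464 in HFD renin (n = 5). This ratio, Ogdh to Dlst and Sucla2 to Suclg1 were chosen after values were seen and compared in 15 two-sided exact permutation tests on log2 ratios, of which 0 passed after Benjamini-Hochberg adjustment. Chow renin and chow null differed in the first ratio by -0.17 on the log2 scale (exact p = 0.019, adjusted p = 0.143). Chow renin and HFD renin differed by 0.20 (exact p = 0.013, adjusted p = 0.143), with the higher ratio in HFD renin.

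Idh2, whose NADPH serves reductive reactions in the matrix, varied widely among the hearts of a group and passed no comparison. Its group means were 1759 ± 190 CPM in chow null (SD, n = 4), 1712 ± 140 in chow renin (n = 6), 1756 ± 270 in HFD null (n = 6) and 1619 ± 277 in HFD renin (n = 5). The groups overlapped in every comparison. The fitted differences from chow null were -0.04 (SE 0.12) in chow renin, 0.00 (SE 0.12) in HFD null and -0.12 (SE 0.12) in HFD renin, with edgeR Benjamini-Hochberg adjusted p of 0.884, 0.995 and 0.579. The first of these took the opposite sign in limma on TPM, with the atrial or the central neuron and glia covariate, and when chow null 4 or chow renin 1 was left out.

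In the 2-oxoglutarate dehydrogenase complex, the E2 component Dlst fell with renin on chow. Dlst stood at 610.4, 619.8, 541.5 and 578.3 CPM in chow null, and its lowest, median and highest in chow renin were 478.1, 497.2 and 516.1 CPM. HFD renin stood at 536.5, 570.2, 521.4, 517.8 and 522 CPM, and HFD null ranged from 490.3 to 622.9 CPM with a median of 557.6. Chow renin was below every chow null and every HFD renin library. Dlst fell by 15.4% in chow renin (log2 fold change -0.24, SE 0.06, edgeR Benjamini-Hochberg adjusted p = 0.0103). It did not pass without chow null 1 or 2 or chow renin 1 or 3 (adjusted p 0.0706, 0.0809, 0.051 and 0.0511), nor without the 5 libraries with atrial transcripts (0.0911, log2 fold change -0.24), nor in limma on TPM (-0.14, adjusted p = 0.0778). Against chow null, HFD renin differed by -0.14 (SE 0.07, edgeR adjusted p = 0.202). Of the 9 genes, Dlst was the only one with all HFD renin libraries above all chow renin libraries, a pattern seen in 5.54% of all genes tested, and that difference was 0.10 (SE 0.06, edgeR adjusted p = 0.241).

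Ogdh, the E1 component, had the highest count of the 9 genes in all 4 groups: 2233 ± 73.6 CPM in chow null (SD, n = 4), 2047 ± 75.8 in chow renin (n = 6), 2235 ± 386 in HFD null (n = 6) and 2113 ± 145 in HFD renin (n = 5). The wide spread in HFD null came with library 6 at 1527 CPM, where its other 5 libraries stood at 2148 to 2527 CPM. No comparison of Ogdh over all libraries passed, with differences of -0.13 (SE 0.10, edgeR Benjamini-Hochberg adjusted p = 0.475) in chow renin and -0.08 (SE 0.10, adjusted p = 0.678) in HFD renin against chow null. With library 6 of HFD null and the 5 libraries with atrial transcripts left out, Ogdh differed by -0.25 between HFD renin and HFD null (edgeR adjusted p = 0.0173), and by -0.08 with them (SE 0.09, adjusted p = 0.626).

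Sucla2 stood at 527 ± 22.6 CPM in chow null (SD, n = 4), 472 ± 19.3 in chow renin (n = 6), 529 ± 48 in HFD null (n = 6) and 478 ± 32.5 in HFD renin (n = 5). The highest chow renin library, 496.2 CPM, was below the lowest chow null library, 500 CPM, but the fitted difference of -0.16 (SE 0.07) did not pass (edgeR Benjamini-Hochberg adjusted p = 0.131). HFD renin differed from HFD null by -0.15 (SE 0.06, adjusted p = 0.132), and by -0.19 without library 6 of HFD null, where it passed (edgeR adjusted p = 0.0386).

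Late in the cycle, Fh1 fell with renin on HFD. HFD renin stood at 280.2, 322, 316, 319.8 and 284.3 CPM, and HFD null had a lowest, median and highest of 325.3, 357.2 and 402.6 CPM. Chow null stood at 348.6, 354.3, 330.5 and 365.3 CPM, and chow renin at 297.1 (lowest), 313 (median) and 332.4 CPM (highest). HFD renin was below every library of both null vector groups. Against HFD null Fh1 fell by 15.7% (log2 fold change -0.25, SE 0.06, edgeR Benjamini-Hochberg adjusted p = 0.00869), and the call stayed when any single library was left out, with adjusted p at most 0.0412. With only these 2 groups in the fit it did not pass (edgeR adjusted p = 0.0744). Against chow null HFD renin differed by -0.20 (SE 0.06, adjusted p = 0.0526) and chow renin by -0.15 (SE 0.06, adjusted p = 0.107). The first of these passed without chow null 3 (edgeR adjusted p = 0.0458), HFD null 5 (0.0392), HFD null 6 (0.0274) or HFD renin 4 (0.0395). With all libraries it passed in edgeR with upper-quartile factors (adjusted p = 0.0339) and in DESeq2 (0.019). It also passed in limma on TPM (0.0183) and on the gene matrix signal (0.0367). It did not pass in edgeR without the filter on low counts or with only the compared groups fitted.

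Mdh2, which closes the cycle, stood at 894 ± 53.6 CPM in chow null (SD, n = 4), 801 ± 16.5 in chow renin (n = 6), 939 ± 74.1 in HFD null (n = 6) and 828.9 ± 46.4 in HFD renin (n = 5). All chow renin libraries, at most 817.2 CPM, lay below all chow null libraries, at least 820.3 CPM. The difference there was -0.16 (SE 0.06, edgeR Benjamini-Hochberg adjusted p = 0.102), and it passed without chow null 3 (adjusted p = 0.0498). HFD renin differed from HFD null by -0.18 (SE 0.06, edgeR adjusted p = 0.0515). That passed without chow null 3 (0.0492), HFD null 1 (0.0401), HFD null 3 (0.027) or HFD renin 2 (0.0481).

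Groups without overlap were counted as well, on CPM, and the counts depended on that scale. All chow renin libraries lay below all chow null libraries for 6 of the 9 genes (Cs, Idh3a, Idh3b, Dlst, Sucla2 and Mdh2), where 4.75% of all genes tested did so. On TPM only Idh3a and Dlst did so. Cs, Idh3b, Sucla2 and Mdh2 overlapped there, Cs with up to 321.3 TPM in chow renin and at least 315.7 TPM in chow null. HFD renin lay wholly below chow null for 3 of 9 on CPM (Cs, Idh3b and Fh1, with 5.07% of all genes) and below HFD null for 1 of 9 (Fh1, with 1.52%). On TPM, Idh3a, Sucla2 and Mdh2 lay wholly below chow null in HFD renin as well. HFD null lay wholly below chow null for 0 of 9 on CPM (1.36%). On TPM it did for Idh3b (at most 316.3 against at least 325 TPM) and Dlst (at most 176.9 against at least 185.4 TPM). The shares over all genes were counted on CPM only, and not among the abundant genes alone.

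The HFD without renin left no cycle gene past the threshold. In edgeR the 9 log2 fold changes against chow null ran from -0.10 to 0.07, with standard errors of 0.06 to 0.12. The unadjusted p was under 0.05 for 0 of 9. On TPM, however, all 9 group means were lower in HFD null, for example 293.2 against 341 TPM for Cs and 170.7 against 193.7 TPM for Dlst. The median log2 fold change over all genes in limma on TPM was -0.08 there, so the flat picture around 0 depends on the scaling. DESeq2 and limma called 0 of 9 there as well.

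Between the renin groups, high-fat against chow, edgeR called 0 of 9, where 22.6% of all genes tested were called (1491 higher and 1949 lower, against 844 and 2247 with upper-quartile factors and 276 and 2171 in limma on TPM). One gene had an unadjusted p under 0.05, Idh3a, which was 0.14 higher (SE 0.06, Benjamini-Hochberg adjusted p = 0.132) in HFD renin. DESeq2 called 0 of 9, and limma on TPM called 2, Fh1 and Idh3b. The interaction term, renin's difference on HFD less its difference on chow, was called by edgeR for 0 of 9 and for 10.4% of all genes. It was 0.19 for Idh3a (SE 0.09, adjusted p = 0.215), the one gene with an unadjusted p under 0.05, and DESeq2 and limma called 0. The different lists of called genes on the 2 diets are therefore not shown to differ.

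The authors' deposited table gives its own log2 fold changes for HFD with virus, with the reference group not stated. The authors' deposited table has adjusted p under 0.05 for 4 of the 9 genes: Cs at -0.245 (adjusted p 0.00666), Fh1 at -0.181 (0.00875), Idh3b at -0.193 (0.00892) and Idh3a at -0.163 (0.0435). For the other 5, the authors' deposited table has adjusted p from 0.0974 to 0.712, all with negative fold changes.

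Other cycle genes were described from a list of 9 subunits (Idh3g, Suclg1, Suclg2, Sdha, Sdhb, Sdhc, Sdhd, Dld and Mrps36). In edgeR with TMM factors all 9 of these changes were negative in each renin comparison with a null vector group, but in limma on TPM Sdha (0.02) and Suclg2 (0.08) were positive in chow renin, and Dld (0.12) and Sdhd (0.02) in HFD renin against HFD null. Against HFD null, 5 of 9 fell in HFD renin: Sdhc by -0.33 (SE 0.07, edgeR Benjamini-Hochberg adjusted p = 0.00519), Idh3g by -0.33 (SE 0.07, adjusted p = 0.00522), Suclg1 by -0.30 (SE 0.07, adjusted p = 0.00662), Sdhb by -0.25 (SE 0.06, adjusted p = 0.013) and Sdha by -0.30 (SE 0.08, adjusted p = 0.0176). Of all genes, 5.08% were lower in HFD renin against HFD null, 4.25% in HFD renin and 3.36% in chow renin against chow null. Of the 300 abundant genes, 63, 45 and 46 were lower in the same order. The counts of negative signs over all genes are given with those of the first 9 genes. Idh3g is the gamma subunit beside Idh3a and Idh3b, Suclg1 is the alpha subunit that pairs with Sucla2, and Sdha, Sdhb and Sdhc belong to succinate dehydrogenase. Without HFD renin 1, Sdhb did not pass (edgeR adjusted p = 0.0511). Sdhb and Suclg1 did not pass with only the compared groups fitted (edgeR adjusted p 0.0787 and 0.052) or in limma on TPM, where their changes were -0.13 and -0.18 (adjusted p 0.0877 and 0.0884) and that of Sdha was -0.02 (0.945). With the clock covariate described further on, under which 15 of all genes were called, Sdhc, Idh3g, Suclg1 and Sdhb were at -0.22, -0.24, -0.22 and -0.19 and did not pass (edgeR adjusted p 0.345, 0.309, 0.34 and 0.407). Against chow null 2 of 9 fell in HFD renin, Sdhb (-0.25, SE 0.07, edgeR adjusted p = 0.0274) and Sdha (-0.28, SE 0.09, adjusted p = 0.0403; -0.22 in limma on TPM, adjusted p = 0.413), and Sdhb did not pass without chow null 1, 2 or 4 or HFD renin 1 or 5 (0.0642, 0.0744, 0.108, 0.0658 and 0.0648). In chow renin 2 of 9 fell, the succinate dehydrogenase anchor Sdhd (-0.28, SE 0.06, edgeR adjusted p = 0.00137) and Mrps36, a small component of the 2-oxoglutarate dehydrogenase complex (-0.21, SE 0.06, adjusted p = 0.0307), the latter at -0.10 in limma on TPM (adjusted p = 0.357). Sdha and Mrps36 are named to complete the counts, after their values were seen. In edgeR none of these 9 was called with HFD alone (1 with an unadjusted p under 0.05), between the renin groups (1) or for the interaction (1), and DESeq2 called 0 in each of these 3. Of all genes, edgeR called 0.0657%, 22.6% and 10.4% there. Between the renin groups limma on TPM called 2 lower, Sdhb (-0.17, adjusted p = 0.0182) and Suclg2 (-0.22, 0.0236).

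Genes that feed carbon into the cycle or draw it off changed in both directions. Of 10 such genes, 6 fell and 1 was higher in HFD renin against chow null, and 1 fell in chow renin, where 4.25% and 3.36% of all genes were lower. Pcx, pyruvate carboxylase, which makes oxaloacetate from pyruvate, fell by 0.71 on the log2 scale in HFD renin (SE 0.11, edgeR Benjamini-Hochberg adjusted p = 0.000571). The difference of Pcx was -0.49 (SE 0.10, adjusted p = 0.0959) with HFD alone and -0.53 (SE 0.10, adjusted p = 0.000325) between HFD renin and chow renin. Me1, the cytosolic malic enzyme that turns malate into pyruvate, was higher by 0.46 (SE 0.10, edgeR adjusted p = 0.00616) in HFD renin against chow null and by 0.40 (SE 0.09, adjusted p = 0.00162) against chow renin. With the central neuron and glia covariate, under which 41 of all genes were called between the renin groups, Pcx was at -0.08 and Me1 at 0.19 there (edgeR adjusted p 1.0 for each).

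The aspartate aminotransferases exchange oxaloacetate for aspartate, and both fell in HFD renin against chow null. Cytosolic Got1 fell by 0.35 in HFD renin (SE 0.07, edgeR Benjamini-Hochberg adjusted p = 0.00309) and by 0.30 in chow renin (SE 0.07, adjusted p = 0.0022) against chow null, the latter not passing in limma on TPM (-0.19, adjusted p = 0.0796). Mitochondrial Got2 fell by 0.28 in HFD renin (SE 0.07, edgeR adjusted p = 0.0158), a call that ended without chow null 1, 2 or 4 (0.0511, 0.0512 and 0.0612). In chow renin Got2 differed by -0.18 (SE 0.07, edgeR adjusted p = 0.0741). Dhtkd1, the E1 component of the 2-oxoadipate dehydrogenase complex and a relative of Ogdh, fell by 0.69 in HFD renin against chow null in edgeR (SE 0.16, adjusted p = 0.0113), but its change was -0.23 in limma on TPM (adjusted p = 0.604) and -0.26 in limma on the gene matrix signal (0.566). It did not pass in edgeR without chow null 2 either (adjusted p = 0.0572). Against HFD null, HFD renin was higher in Me2, the NAD-dependent mitochondrial malic enzyme, by 0.63 (SE 0.13, edgeR adjusted p = 0.00371; 0.40 in limma on the gene matrix signal, adjusted p = 0.106) and lower in its NADP-dependent relative Me3, at -0.40 (SE 0.09, adjusted p = 0.00501). With the clock covariate Me2 was at 0.36 (edgeR adjusted p = 0.381) and Me3 at -0.26 (0.332).

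**Figure D3:**
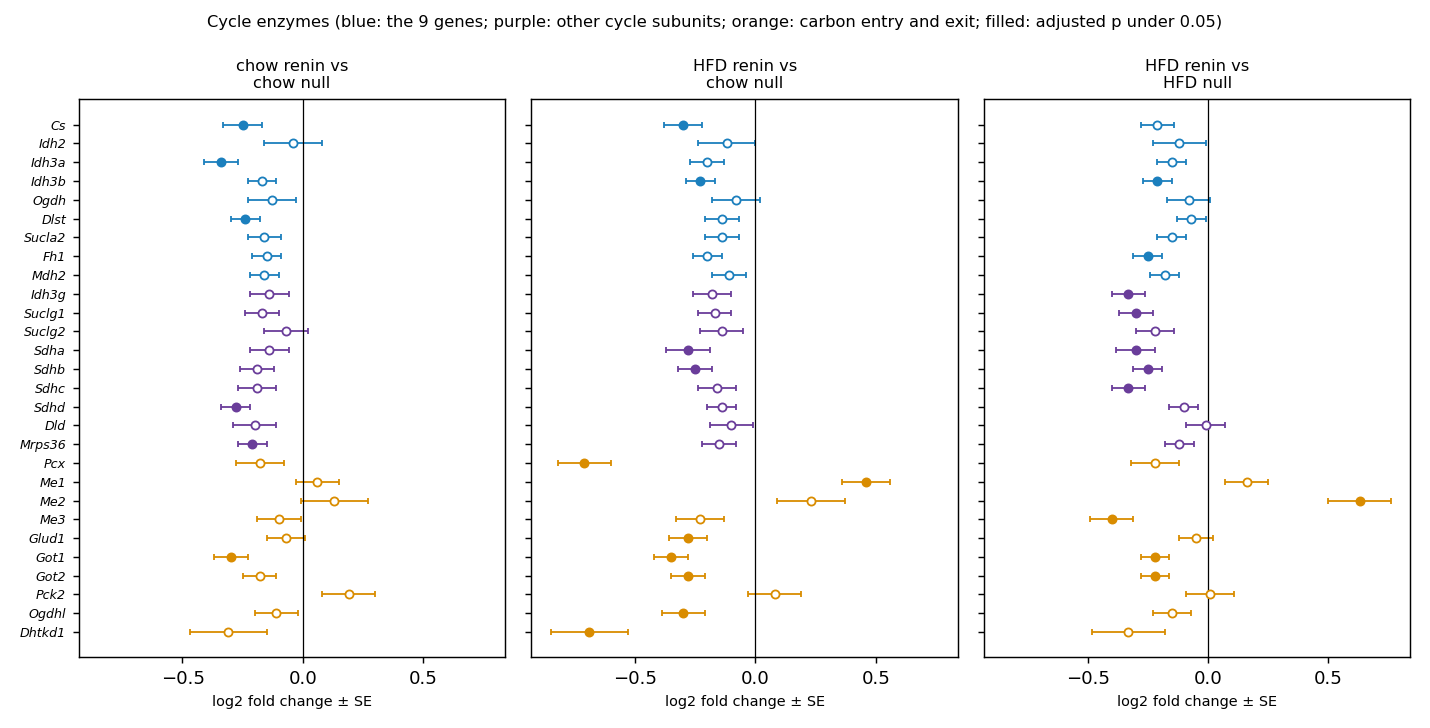
Fitted log2 fold change with its standard error (x axis) of the 9 cycle genes (blue), 9 other cycle subunits (purple) and 10 genes of carbon entry and exit (orange) in 3 comparisons, with filled points for adjusted p under 0.05 in edgeR. In edgeR the blue and purple cycle genes all lie below 0, from -0.34 to -0.01 (in limma on TPM, Idh2, Sdha and Suclg2 on chow and Dlst, Ogdh, Sucla2, Dld and Sdhd against HFD null do not), while the entry and exit genes run from -0.71 for Pcx to 0.63 for Me2. Of all 15216 genes, 8457 lie below 0 in chow renin against chow null, 7207 in HFD renin against chow null and 7777 against HFD null. Of the 300 abundant genes, 259, 166 and 190 do so in the same order.

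Other lists around the cycle showed changes in both directions. Acly, which splits citrate in the cytosol for lipid synthesis, was higher by 0.35 (SE 0.07, edgeR Benjamini-Hochberg adjusted p = 0.000385) in chow renin against chow null and lower in HFD renin than in chow renin, at -0.36 (SE 0.06, adjusted p = 8.16e-05). In limma on the gene matrix signal neither passed (0.26 and -0.24, adjusted p 0.106 and 0.0871). Of 4 assembly factors of succinate dehydrogenase, 2 fell in chow renin against chow null, and 3 were higher in HFD renin than in chow renin, beside 511 of all 15216 genes lower in the first and 1491 higher in the second. Sdhaf4 was among both, at -0.36 (SE 0.09, edgeR adjusted p = 0.00692) and 0.29 (SE 0.08, adjusted p = 0.0141), and neither held throughout. In limma on TPM they were -0.25 (adjusted p = 0.152) and 0.16 (0.291), without the 5 libraries with atrial transcripts -0.32 (edgeR adjusted p = 0.079) and 0.23 (0.149), and with the central neuron and glia covariate -0.03 (0.985) and 0.01 (1.0). The second also did not pass without chow renin 1 or 3 or HFD renin 1 (0.0576, 0.0551 and 0.105). Sdhaf2, which helps attach the flavin to Sdha, was higher in HFD renin than in chow renin by 0.31 (SE 0.08, edgeR adjusted p = 0.0076), and did not pass without HFD renin 1 (0.0534) or in limma on TPM (0.16, adjusted p = 0.204), and was at 0.16 with the central neuron and glia covariate (edgeR adjusted p = 1.0).

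Among 10 regulators of mitochondrial genes, 2 fell in chow renin, 1 in HFD renin against chow null and 1 against HFD null, where 3.36%, 4.25% and 5.08% of all genes were lower; counts of 1 or 2 genes say little beside those shares. Esrra, the estrogen-related receptor alpha, a transcription factor for oxidative metabolism genes, differed by -0.27 in chow renin (SE 0.08, edgeR Benjamini-Hochberg adjusted p = 0.0195) and by -0.25 in HFD renin against HFD null (SE 0.07, adjusted p = 0.0301). The first did not pass without chow null 1 or 2 or chow renin 3 or 5 (0.0888, 0.128, 0.0625 and 0.0524). Nor did it pass in 4 of 15 other settings, limma on TPM (-0.21, adjusted p = 0.189) among them. Sirt5, a mitochondrial deacylase that removes succinyl groups, differed by -0.19 in chow renin (SE 0.05, edgeR adjusted p = 0.0154), which did not pass without chow null 1, 2 or 4 or chow renin 1 or 3 (0.0576, 0.108, 0.0762, 0.0563 and 0.0696) or in limma on TPM (-0.15, adjusted p = 0.454). It also missed with upper-quartile factors (edgeR adjusted p = 0.0521), without the filter (0.0795) and with only the compared groups (0.0513). Tfam, which packages and transcribes mitochondrial DNA, was higher in HFD renin than in chow renin by 0.25 (SE 0.07, edgeR adjusted p = 0.0168), and did not pass without chow renin 1 or 3 or HFD renin 1 or 5 (0.0653, 0.0709, 0.0889 and 0.0501) or in limma on TPM (0.18, adjusted p = 0.259). With the central neuron and glia covariate Tfam was at 0.07 (edgeR adjusted p = 1.0), and in chow renin Esrra was at -0.09 (0.951) and Sirt5 at -0.09 (0.908).

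Across the 21 libraries the cycle genes moved largely together, as a description with no test. Pearson's r of log2 CPM over the 36 pairs of the 9 genes had a median of 0.71 and ran from 0.10 to 0.93. After each group's mean was taken out the median was 0.68. Before that step Sucla2 had the highest median r with the other genes, 0.81, and Idh2 the lowest, 0.52. After it Sucla2 was again highest, 0.77, and Idh3a lowest, 0.41, with Idh2 at 0.64. These libraries share depth, TMM factors and tissue make-up, so the correlation is not a measure of shared control.

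Ranked by Pearson's r with the mean of the 9 genes over the 21 libraries, among 5551 genes with a mean of at least 20 CPM, the 6 most alike were Uqcrc2 and Atp5a1 (both 0.95), Phyh (0.92), and Dele1, Vdac1 and Tmem143 (0.91 each). Uqcrc2 is a core subunit of respiratory complex III, Atp5a1 the alpha subunit of ATP synthase, and Vdac1 the main channel of the mitochondrial outer membrane. Atp5a1 stood at 1924 ± 81.3 CPM in chow null (SD, n = 4), 1698 ± 48.5 in chow renin (n = 6), 1920 ± 144 in HFD null (n = 6) and 1635 ± 110 in HFD renin (n = 5).

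Most of the 9 genes were read almost entirely from a single transcript. The leading transcript held over 95% of the gene's TPM on average in 6 of them (Cs, Idh2, Idh3a, Idh3b, Fh1 and Mdh2). In Sucla2 it held 57.2%, with a second coding transcript at 42.0%, and in Ogdh 77.5%, with a second coding transcript at 17.5%. In Dlst it held 91.1%. Shares in Ogdh, Dlst and Sucla2 were compared in 15 two-sided exact permutation tests, of which 0 passed after Benjamini-Hochberg adjustment. The lowest p were for Ogdh, whose leading share was 75.5% ± 0.988 in HFD renin (SD, n = 5) against 78.3% ± 0.629 in chow null (n = 4, exact p = 0.00794, as small as 5 against 4 libraries can give; adjusted p = 0.0595). Against chow renin, at 77.9% ± 1.22 (n = 6), the exact p was 0.00649 and the adjusted p 0.0595.

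**Figure D4:**
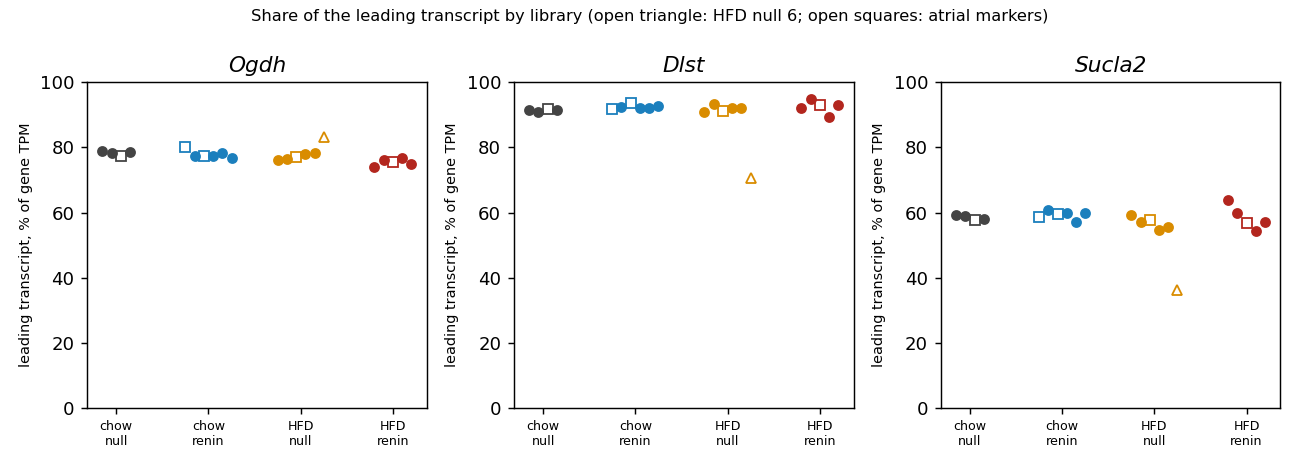
Share of the gene's TPM held by the leading transcript (y axis, percent) of Ogdh, Dlst and Sucla2 in each library by group (x axis), with open squares for libraries with atrial transcripts and an open triangle for library 6 of HFD null. The triangle lies at 83.3% for Ogdh, 70.5% for Dlst and 36.1% for Sucla2, outside the range of all other libraries.

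Markers of other cells moved with some of these groups. The 8 cardiomyocyte markers summed to 65169 to 79677 CPM in chow null, 60485 to 62621 in chow renin, 56425 to 71358 in HFD null and 56032 to 61553 in HFD renin, so that both renin groups lay wholly below chow null. Of the 9 cycle genes, Cs and Idh3b did so in both renin groups on CPM, but on TPM both overlapped chow null in chow renin. Against chow null, edgeR called 4 of the 8 markers lower in HFD renin (median log2 fold change -0.32) and 2 in chow renin (-0.22). Against HFD null it called 4 lower and 1 higher in HFD renin (-0.21). Of all genes, 4.25%, 3.36% and 5.08% were lower in these comparisons. Of 12 central neuron and glia markers, 11 were higher in chow renin than in chow null and 11 lower in HFD renin than in chow renin, and 0 of the 12 was without reads. With the mean log2 level of those markers as a covariate, edgeR called 33 of all 15216 genes in chow renin, all higher, and 0 of the 9 cycle genes, which reads as no result about them, with adjusted p of 0.584 for Idh3a, 0.737 for Cs and 0.807 for Dlst at log2 fold changes of -0.40, -0.31 and -0.21. That level did not overlap between chow renin and chow null, so the covariate and the group can hardly be told apart. Fibroblast markers (8 genes) summed to 1017 to 1542 CPM in HFD renin, 619 to 1437 in HFD null, 592 to 891 in chow renin and 628 to 1124 CPM in chow null, ranges that overlap between HFD renin and both null vector groups, and 1 of the 8 was called in HFD renin against chow null and 0 against HFD null. Between the renin groups the fibroblast sums did not overlap. There 3 of the 8 fibroblast markers and 3 of 7 endothelial markers were called higher in HFD renin, beside 1491 of all 15216 genes. The part of all these markers in the results was not tested further.

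A clock score, the mean log2 level of day genes minus that of night genes, also moved with renin. It was -3.55 ± 0.13 in chow null (SD, n = 4), -3.05 ± 0.14 in chow renin (n = 6), -3.30 ± 0.12 in HFD null (n = 6) and -2.87 ± 0.41 in HFD renin (n = 5). With it as a covariate, edgeR called 0 of all 15216 genes in HFD renin against chow null (1211 with an unadjusted p under 0.05) and 15 against HFD null, so that 0 of the 9 cycle genes called there is no result about them. The fitted changes with the covariate were -0.25 for Cs (edgeR adjusted p = 0.622) and -0.17 for Idh3b (0.698) against chow null, and -0.20 for Fh1 (0.337) and -0.17 for Idh3b (0.453) against HFD null. In chow renin, where 1598 of all genes were called with the covariate, Idh3a and Dlst passed and Cs did not (-0.21, edgeR adjusted p = 0.213).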

How the data were processed

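The authors deposited, per library, a transcript table in the layout of Salmon. Per the submitters' processing notes, Salmon 1.10.2, DESeq2 1.40.2 and build GRCm38 (mm10) were used. Per the file headers and values, the tables hold estimated counts and TPM, which the authors' quantification corrects for transcript length. The deposited gene matrix holds a signal per library, for most genes TPM times a factor per library, and the authors' log2 fold change and adjusted p-value. Transcripts were matched by identifier to GENCODE M21 (98.0%). Gene sums of the estimated counts were rounded and tested in place of the raw counts the tests were laid out for. edgeR 4.0.16 (R 4.3.3; TMM, filterByExpr, quasi-likelihood F test, Benjamini-Hochberg over 15216 genes) fitted all 21 libraries with a term per group. Library totals were 18.7 to 29.3 M (mega) reads. The fit was tested on simulated counts for HFD renin against chow null. It called 48% of the genes changed by 0.5 on the log2 scale and 76.5% of those changed by 1.0. Unchanged genes made up 3.15% of its calls. Changes as small as those of the 9 genes, which ran to -0.34 in edgeR, were not simulated, so a gene not called may still have changed. DESeq2 1.42.0 and limma 3.58.1 were alternatives. Members and lists were chosen with earlier results of these data known. Besides the 9 genes, those of the listed pathway genes called in a comparison are named, up to 6 by adjusted p, plus the 6 most alike. Same-numbered libraries did not pair. One gene of the listed pathway genes is not reported here and was left out of the list counts and of the ranking by likeness.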

Additional observations from a re-analysis of the deposited data

Results flagged for a closer look

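Of 60 groups of values checked for a library far from the rest, 6 held one, where chance gives about 1 in 20. Library 6 of HFD null accounts for 5 of them: Cs at 840 CPM, the TPM ratio of Sucla2 to Suclg1 at 1.07, and leading transcript shares of 83.3% for Ogdh, 70.5% for Dlst and 36.1% for Sucla2. The sixth is Idh3a in chow renin 6, at 446.2 CPM, above the 399.9 to 413.4 CPM of the other chow renin libraries. Without library 6 of HFD null, edgeR called 4 cycle genes lower in HFD renin against chow null (Cs, Fh1, Idh3a and Idh3b) and 4 against HFD null (Cs, Fh1, Idh3b and Sucla2), where 798 and 621 of all 15194 genes were called lower.

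The effect of renin differed between the diets, by edgeR's interaction term, for 4 of 37 listed genes around the cycle and for 0 of the 9 members. That is 10.8% of the 37, near the 10.4% of all genes tested. The term was -0.44 for Acly (adjusted p = 0.00145), 0.50 for Sdhaf4 (0.00866), 0.42 for Sdhaf2 (0.0211) and 0.35 for Tfam (0.0347). With the central neuron and glia level as a covariate, 0 of these 4 passed (adjusted p 0.999 for each), where 24 of all 15216 genes did. In limma on TPM Acly, Sdhaf2 and Tfam did not pass (adjusted p 0.159, 0.0502 and 0.177). Without the 5 libraries with atrial transcripts Sdhaf4 did not pass (0.44, edgeR adjusted p = 0.0806). Tfam did not pass with RLE factors (0.0506), upper-quartile factors (0.0661), no filter (0.0659) or thinned libraries (0.0528). Sdhaf2 did not pass without chow null 1 or 2, chow renin 1 or HFD renin 1 (adjusted p 0.0744, 0.0731, 0.0592 and 0.0689). Tfam did not pass without any one of 12 libraries, with adjusted p up to 0.139.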

How the results depend on the processing

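Counts of the 9 genes called, all lower in edgeR, depended on single libraries and settings. Counts over all genes follow in brackets. In HFD renin against chow null, 2 were called (1262 of 15216). The count was 1 without a filter (969 of 23798), 1 with only the compared groups fitted (803 of 14275), 1 with the central neuron and glia covariate (1579), 0 with the clock covariate (0) and 4 in DESeq2 (1614). It ran from 0 to 4 when single libraries were left out. In chow renin against chow null, 3 were called (2048), with 5 from only the compared groups (2500 of 14839), 0 with the central neuron and glia covariate (33), 1 in limma on TPM (1614), and 1 to 4 when single libraries were left out. In HFD renin against HFD null, 2 were called (1696), with 4 under upper-quartile factors (1730), 1 without a filter (1318 of 23798), 0 from only the compared groups (549 of 14421), 0 with the clock covariate (15), 1 in limma on TPM (1700), 4 in DESeq2 (2176), and 1 to 4 when single libraries were left out. Between the renin groups limma on TPM called 2 (2447). The share of estimated counts in place of TPM gave 1 leading transcript share past the threshold.

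Chosen after seeing the data, leaving out the 5 libraries with atrial transcripts gave 2, 1 and 3 calls in the 3 comparisons (1263, 1556 and 1486 of all 15142 genes), and leaving out library 6 of HFD null too gave 4, 3 and 6 (1751, 1804 and 1451 of 15111). Thinning all libraries to 18.6 M reads kept the calls of the same genes. Idh2 in chow renin against chow null turned positive with the atrial covariate (0.01), the central neuron and glia covariate (0.38) and limma on TPM (0.07), and ran from -0.10 to 0.03 when single libraries were left out, turning positive without chow null 4 (0.03) or chow renin 1 (0.01). In limma on TPM, HFD renin against HFD null turned positive for Dlst (0.04), Ogdh (0.07) and Sucla2 (0.00). The cause was not tested.

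Replicate numbers did not pair the libraries: 11 of 28 same-numbered pairs had a correlation of deviations over 0.1, and 6 of 21 libraries correlated best with their own number. With the replicate block, 2, 2 and 3 genes were called in the same order of comparisons: Cs did not pass in chow renin (adjusted p = 0.0593) and passed against HFD null (0.0495). The interaction was not fitted on compared groups only, since it needs all 4.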
